A study of Sus scrofa with 8 samples.

Results

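The epidermal growth factor (EGF) receptor and its ligands were described in the jejunum of suckling and weaned piglets. The set was named as 7 genes, the receptor EGFR and the ligands AREG, EGF, TGFA, HBEGF, BTC and EREG, and members were found by the RefSeq accession that the array gives each probe. Of these 7 genes, 5 had a probe, out of 3216 genes with a symbol on the array. BTC and EREG had none under a RefSeq accession and were not analysed here. AREG had 2 probes, EGF 3, and HBEGF, TGFA and EGFR 1 each, and the probe with the highest mean log2 intensity over all 8 arrays stood for its gene. That mean level chose the probes, and the difference between the groups did not enter the choice of probe. Probes were thus chosen by their mean intensity, and the set of genes was proposed with earlier results of these arrays known.

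The samples were middle jejunum of Duroc × Landrace piglets aged 25 days, from 4 litters, with 1 piglet per array on 1-colour arrays. The 4 suckling piglets stayed with the sow, and the 4 weaned piglets had been moved to nursery pens at 21 days with free access to water and a basal diet of 14.48 MJ/kg digestible energy and 20.50% crude protein. They were sampled 4 days after weaning, and each treatment took 1 piglet from each litter. A piece of about 2 cm of gut was used as bulk tissue, so fewer cells of a type and less RNA per cell cannot be told apart.

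The EGF receptor is a tyrosine kinase of the cell surface. Its ligands are made as membrane-anchored precursors and are freed by sheddases such as ADAM17, after which the receptor signals through the RAS, PI3 kinase and STAT routes to growth, migration and survival of the epithelium. EGF itself also reaches the gut of the suckling animal with milk. AREG (amphiregulin) and EREG are low-affinity ligands, whereas EGF, TGFA (transforming growth factor alpha), HBEGF (heparin-binding EGF-like growth factor) and BTC bind the receptor tightly. In the RefSeq gene order of the pig assembly Sscrofa11.1, EREG and BTC are the direct neighbours of AREG.

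The arrays held 43603 probes, and between 67.6% and 71.0% of them were well above background per array. Suckling replicate 1 had the lowest 75th percentile of processed intensity, 245, and the other 7 arrays had 317 to 395. All levels below are log2 intensities minus this percentile of the same array, so 0 marks the percentile. The suckling arrays lay on one slide and the weaned arrays on the other, so the effects of slide and of weaning cannot be told apart. The villus enterocyte markers APOA4, FABP2 and SLC5A1 were well above background on all 8 arrays. The summed level of the 9 measured villus markers of 15 listed, in units of the 75th percentile of the array, was lowest in suckling replicate 1 (620), with 2944 to 4338 in its 3 group mates against 1021 to 2268 in the weaned arrays. Suckling replicate 1 was thus lowest in its percentile and in its villus sum, though the outlier check given further below marked neither value. The difference of each receptor and ligand gene is also given without this array.

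AREG, which epithelial cells and several kinds of immune cell produce, was the ligand with the largest difference between the groups among the 5 measured genes. In suckling piglets 1 to 4 the level of AREG was 0.052, -1.94, -0.38 and -1.06. In weaned piglets 1 to 4 it was 0.55, 0.64, 1.07 and 1.73. Every weaned array was above every suckling array, and suckling replicate 1 came closest to the weaned arrays. Before scaling, the processed intensity of AREG, with background already subtracted, was 254, 102, 304 and 164 in the suckling arrays. In the weaned arrays it was 465, 606, 816 and 1270. The local background around the spots of this probe lay between 34.5 and 38.0, and the probe was well above background on all 8 arrays.

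Group values are given as the mean ± SD of these log2 levels, with n = 4 piglets in each group. AREG averaged -0.83 ± 0.87 in the suckling and 1.00 ± 0.53 in the weaned group. The difference was 1.83 on the log2 scale, a ratio of 3.55, with a 95% interval of 0.85 to 2.81 (SE 0.43). The limma p was 0.00223 and the p adjusted over all 30554 tested probes was 0.180, so AREG did not pass the threshold of 0.05 with all 8 arrays. By its p, AREG stood at place 29 of 2813 tested genes with a symbol. Without suckling replicate 1, AREG rose by 2.12 on the log2 scale, 4.35-fold (SE 0.41, limma adjusted p = 0.0469). Since the gene set was proposed with earlier results of these arrays known, that call is not independent evidence.

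The second AREG probe, aimed at the same RefSeq transcript, gave the same order of the groups. Its level was -1.21, -2.54, -1.21 and -1.73 in suckling piglets 1 to 4 and -0.20, -0.061, 0.27 and 0.81 in weaned piglets 1 to 4. Again the groups did not overlap, and suckling replicate 2 was lowest and weaned replicate 4 highest on both probes. The difference was 1.87 (SE 0.34, limma adjusted p = 0.0865), and without suckling replicate 1 it was 2.03 (SE 0.35, limma adjusted p = 0.0388). The probes share the RNA of each piglet and are not replicates of each other.

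**Figure D1:**
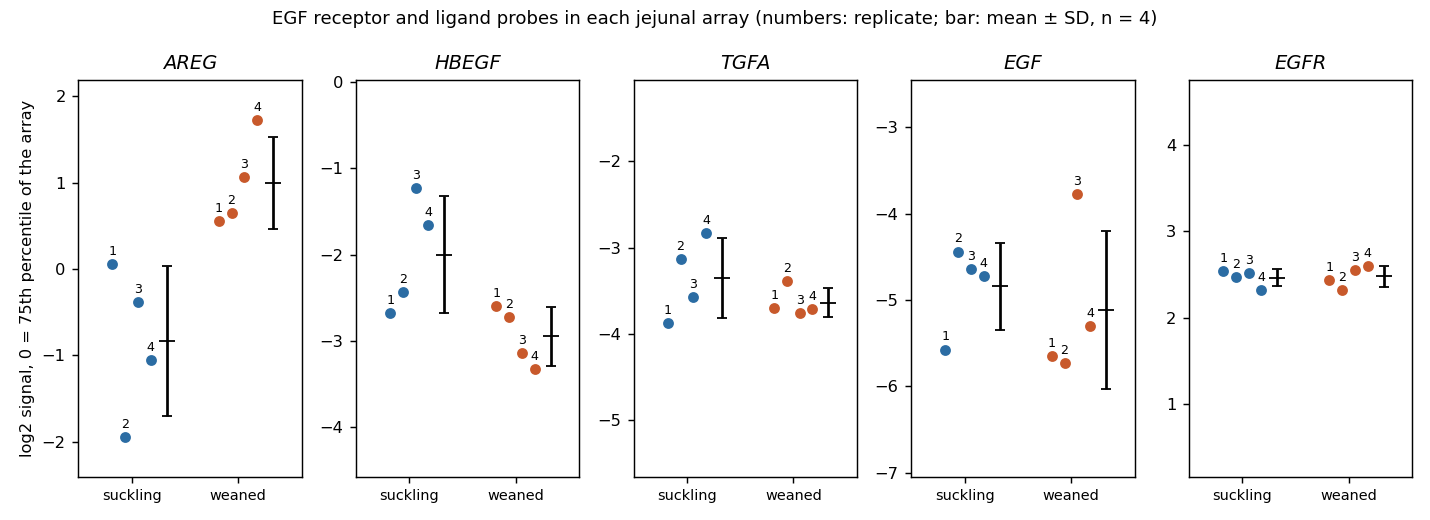
Level of the 5 measured genes in each array (log2 signal, 0 at the 75th percentile of the array), with blue points for suckling and orange points for weaned piglets, replicate numbers above the points, and mean ± SD (n = 4) at the side; all panels span the same number of log2 units. The groups are apart for AREG and overlap for HBEGF (through suckling replicate 1), TGFA, EGF and EGFR.

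HBEGF, a ligand made by epithelium, muscle and macrophages and active in wound repair, pointed the other way. Its level was -2.67, -2.44, -1.22 and -1.66 in suckling piglets 1 to 4. In weaned piglets 1 to 4 it was -2.60, -2.72, -3.13 and -3.32. Its processed intensity before scaling was low, 38.4 to 169 in the suckling and 38.4 to 58.8 in the weaned arrays. The probe was well above background on all 8 arrays. The groups overlapped through suckling replicate 1, which lay below weaned replicate 1, while suckling replicates 3 and 4 were the highest of all arrays. The means were -2.00 ± 0.67 and -2.94 ± 0.34. The difference was -0.95 with a 95% interval of -1.69 to -0.20 (SE 0.33). HBEGF did not pass (limma adjusted p = 0.312, unadjusted 0.0187), nor did it without suckling replicate 1, where the difference was -1.17 and the groups no longer overlapped (SE 0.31, limma adjusted p = 0.0844). Smooth muscle markers, 4 of 9 measured, summed to 128 to 278 in suckling and 70.4 to 241 in weaned piglets, which overlap. Of the 4, 3 averaged higher after weaning (median difference 0.089), and 2 did without suckling replicate 1 (median 0.0030). The part of any cell type in the HBEGF difference was not tested. With normexp background correction the difference of HBEGF was -0.38 and that of AREG 1.18. That setting adds an offset of 50 to the intensities, which draws the log2 differences of dim probes toward 0.

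TGFA, also made by the epithelium, was low on these arrays but well above background on all 8. Its level was -3.87, -3.13, -3.57 and -2.83 in suckling piglets 1 to 4 and -3.70, -3.39, -3.76 and -3.71 in weaned piglets 1 to 4. The suckling values spread on both sides of the weaned ones. The means were -3.35 ± 0.46 and -3.64 ± 0.17, with a difference of -0.29 and a 95% interval of -0.82 to 0.24 (SE 0.23, limma adjusted p = 0.654). Without suckling replicate 1 the difference of TGFA was -0.46 (SE 0.20, limma adjusted p = 0.222), and with normexp background correction of all 8 arrays it was -0.027.

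EGF, the ligand that names the family, was near the limit of detection in the jejunum. Its brightest probe was well above background on 3 suckling arrays and on 1 weaned array. The level of that probe was -5.57, -4.44, -4.63 and -4.72 in suckling piglets 1 to 4 and -5.65, -5.72, -3.77 and -5.30 in weaned piglets 1 to 4. The highest value of EGF was that of weaned replicate 3, and the groups overlapped. The means were -4.84 ± 0.50 and -5.11 ± 0.91, and the difference was -0.27 with a 95% interval of -1.27 to 0.73 (SE 0.44, limma adjusted p = 0.840). Without suckling replicate 1 it was -0.51 (SE 0.44, limma adjusted p = 0.531), and with normexp background correction it was -0.043.

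The other EGF probes were not tested, since 1 of them was well above background on 3 arrays and the other on none. The former, A_72_P634012, had its values above background in suckling replicates 2 and 4 and weaned replicate 3, the arrays where it was highest. Of these, suckling replicate 2 and weaned replicate 3 were also the highest arrays of the brightest probe. It averaged -5.73 ± 1.08 in the suckling and -6.08 ± 0.98 in the weaned group.

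EGFR, the receptor, had nearly the same level in every piglet. It was 2.55, 2.48, 2.52 and 2.32 in suckling piglets 1 to 4 and 2.44, 2.32, 2.55 and 2.59 in weaned piglets 1 to 4. The groups overlapped fully, and the spread within a group was the smallest of the 5 genes, with means of 2.46 ± 0.10 and 2.48 ± 0.12. The difference was 0.014 with a 95% interval of -0.29 to 0.32 (SE 0.14, limma adjusted p = 0.976), which in ratios is 0.816 to 1.25. Without suckling replicate 1 it was 0.041 (SE 0.14, limma adjusted p = 0.889). The sign of the EGFR difference with all 8 arrays changed with the scaling between arrays: it was -0.065 with quantile normalization and -0.028 with median scaling.

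**Figure D2:**
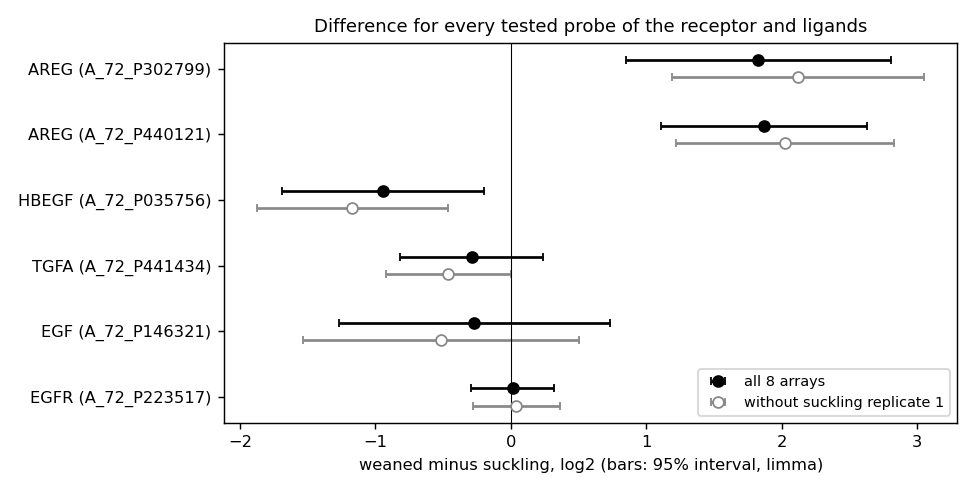
Weaned minus suckling difference (log2, x axis) with its 95% interval from limma for the 6 tested probes of the receptor and ligands, with all 8 arrays (black) and without suckling replicate 1 (grey, open). Both AREG probes lie near 1.83 to 1.87 with all arrays, HBEGF at -0.95, and the EGFR interval from -0.29 to 0.32 is the narrowest.

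Counted over the set, 0 of 5 genes passed with all 8 arrays, where 0.177% of all tested probes did (0.173% higher and 0.00327% lower in weaned piglets). At an unadjusted limma p under 0.05 there were 2 of 5, AREG and HBEGF, against 12.3% of all tested probes. The groups did not overlap for 1 of 5 genes, AREG, against 7.76% of all tested probes (4.93% higher and 2.83% lower in weaned piglets). Without suckling replicate 1, 1 of 5 passed against 1.82% of tested probes (1.23% higher in weaned piglets), and the groups did not overlap for 2 of 5, AREG and HBEGF, against 20.5% (8.34% lower in weaned piglets). The median difference of the 5 genes was -0.27, that of all tested probes 0.039. In the suckling group, replicate 1 had the highest AREG and EGFR and the lowest HBEGF, TGFA and EGF, so leaving it out moved the differences of these 5 genes away from 0.

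**Figure D3:**
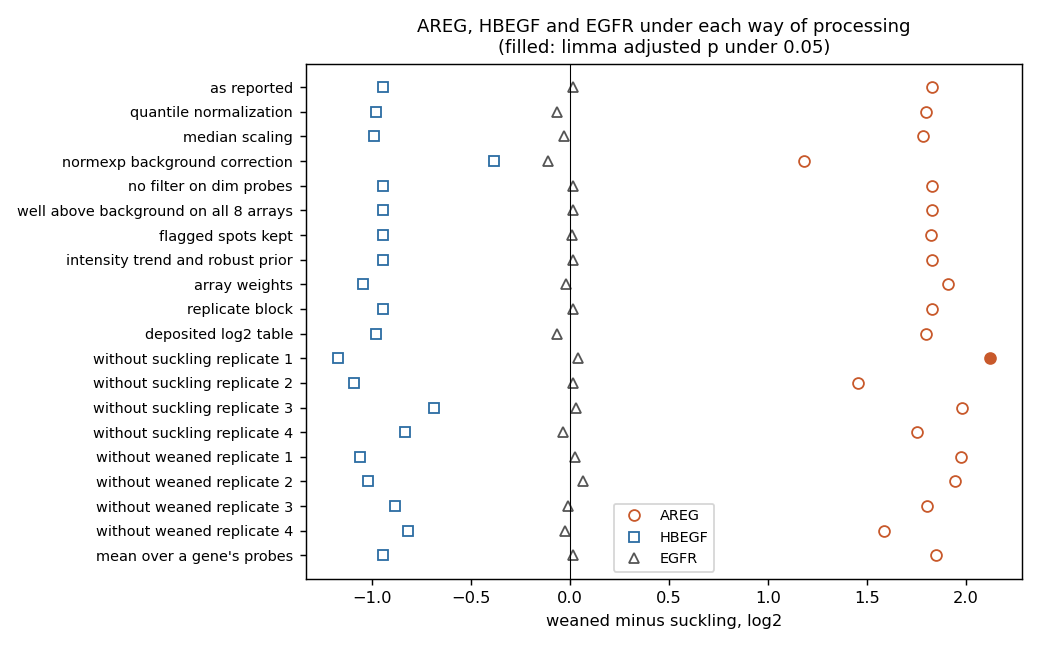
Weaned minus suckling difference (log2, x axis) of AREG (circles), HBEGF (squares) and EGFR (triangles) under each way of processing the arrays (y axis), filled where the limma adjusted p was under 0.05. AREG lies between 1.18 and 2.12 and HBEGF between -1.17 and -0.38 in all settings shown, EGFR between -0.11 and 0.066, and the 1 filled point is AREG without suckling replicate 1.

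The other genes of the pathway were taken from 5 lists by role with 102 symbols, IL8 and CXCL8 being 2 names of 1 gene. Of these, 31 had a probe and 30 were tested, and EGR2, a zinc finger gene of the early response, was not well above background on any array. None of the 30 passed with all 8 arrays or without suckling replicate 1. At an unadjusted limma p under 0.05 there were 3 of 30 (SOCS3, JUN and CXCL8), against 12.3% of all tested probes, and the groups did not overlap in 4 of 30, against 7.76% of all tested probes. Of the 30, 17 averaged higher and 13 lower after weaning (median difference 0.14). The list of other ERBB receptors and their ligands (ERBB2, ERBB3, ERBB4, EPGN and the neuregulins) had 0 of 8 genes measured.

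Among the sheddases and trafficking proteins, which bring ligands to the surface and cut them free, 3 of 10 were tested: 2 averaged higher and 1 lower after weaning (median 0.17). CNIH1, a cornichon protein that exports cargo from the endoplasmic reticulum, had the smallest p of the 3. It averaged -0.88 ± 0.34 in the suckling and -0.61 ± 0.24 in the weaned group, and the groups overlapped (limma adjusted p = 0.625). ADAM17, the main sheddase of AREG, HBEGF and TGFA, differed by -0.19 (SE 0.28, limma adjusted p = 0.818). ADAM10, which sheds EGF and BTC, differed by 0.17 (SE 0.13, limma adjusted p = 0.626).

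Among feedback inhibitors and proteins of receptor turnover, 4 of 24 were tested, 3 averaging higher and 1 lower after weaning (median 0.28). SOCS3, a suppressor of cytokine and STAT3 signalling, was -3.43, -4.43, -4.51 and -4.65 in suckling piglets 1 to 4. In weaned piglets 1 to 4 it was -2.65, -3.27, -4.08 and -3.38. Only weaned replicate 3 and suckling replicate 1 lay within the range of the other group. The difference was 0.91 (SE 0.35, limma adjusted p = 0.354), 1.19 without suckling replicate 1 (limma adjusted p = 0.0791) and 0.16 with normexp background correction. SOCS5, which promotes breakdown of the EGF receptor, averaged -1.83 ± 0.14 in the suckling and -2.06 ± 0.10 in the weaned group. The groups did not overlap on this probe but did on the second SOCS5 probe (limma adjusted p = 0.548 and 0.846).

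Among adaptors, kinases and signal relays, 10 of 28 were tested, 6 with a higher and 4 with a lower mean in weaned piglets (median 0.14). GRB2, the adaptor that links the receptor to RAS, averaged 2.21 ± 0.23 in the suckling and 2.54 ± 0.12 in the weaned group (difference 0.33, SE 0.16, limma adjusted p = 0.445). Its second probe differed by 0.087, and by -0.073 without suckling replicate 1.

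Among early and delayed response genes, which growth factors switch on in cultured cells, 13 of 32 were tested, 6 with a higher and 7 with a lower mean in weaned piglets (median -0.039, and 0.12 without suckling replicate 1). JUN, a subunit of the AP-1 transcription factor, was 6.69, 5.90, 6.70 and 7.10 in suckling piglets 1 to 4. In weaned piglets 1 to 4 it was 5.21, 5.61, 5.65 and 5.35. All weaned arrays lay below all suckling arrays, and the difference was -1.14 with a 95% interval of -1.71 to -0.57 (SE 0.25, limma adjusted p = 0.151). JUN differed by -1.11 without suckling replicate 1 (limma adjusted p = 0.0778). FOS, the partner of JUN in AP-1, differed by -0.11 (SE 0.52, limma adjusted p = 0.949) and by 0.12 without suckling replicate 1, and MYC by 0.11 (SE 0.22, limma adjusted p = 0.876).

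CXCL8, the neutrophil chemokine interleukin 8, was 2.23, 1.51, 1.99 and 1.86 in suckling piglets 1 to 4 and 2.47, 3.22, 2.61 and 2.51 in weaned piglets 1 to 4. The groups did not overlap, and the difference was 0.80 (SE 0.22, limma adjusted p = 0.230). CXCL8 differed by 0.91 without suckling replicate 1 (limma adjusted p = 0.0737). JUN and CXCL8 belong to the same list and pointed in opposite directions.

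**Figure D4:**
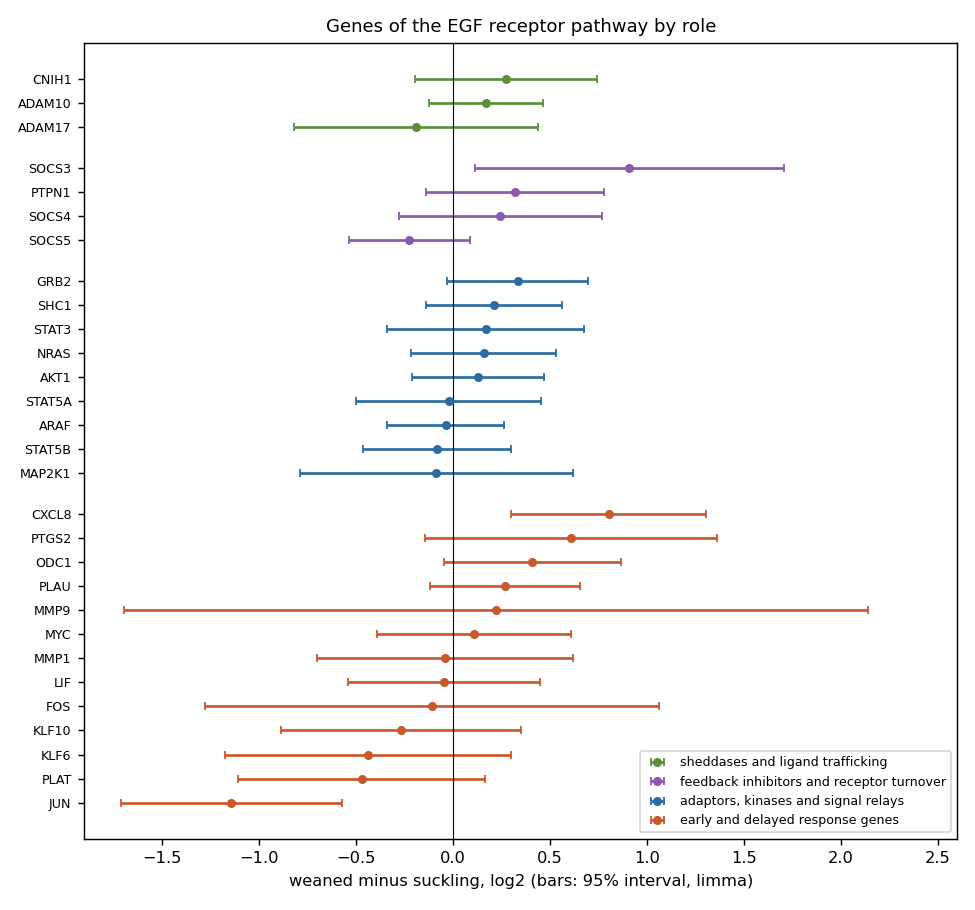
Weaned minus suckling difference (log2, x axis) with its 95% interval from limma for tested pathway genes, coloured by role. The intervals of SOCS3, CXCL8 and JUN leave out 0, and none of those shown passed after adjustment over all tested probes.

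Markers of the cell types that can make AREG were set beside it. Of the dividing and crypt cell list, 11 of 18 genes were measured and all 11 averaged higher after weaning (median difference 0.61), none past the threshold. The summed level of these markers was 91.2 in suckling replicate 1, between 29.7 and 41.4 in the other suckling arrays and between 49.7 and 82.5 in the weaned arrays. Among the weaned arrays, replicate 1 had the highest sum (82.5) and the lowest AREG (0.55). Weaned replicate 3 had the lowest sum (49.7) and an AREG level of 1.07. On the second AREG probe, suckling replicates 1 and 3 were level at -1.21. Suckling replicate 1 was the highest suckling array for this sum and for AREG on its brightest probe. Without it, all 11 again averaged higher (median difference 1.00). Of the 11, 4 then passed the threshold, where 1.82% of all tested probes did (1.23% higher in weaned piglets). These 4 were CENPM, MCM3, MYBL2 and CDCA7, higher by 1.28, 1.04, 1.35 and 0.96 on the log2 scale (limma adjusted p = 0.0349, 0.0349, 0.0418 and 0.0436).

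Epithelial markers of any kind had 6 of 11 genes measured, with summed levels of 464 to 485 in suckling and 527 to 711 in weaned piglets. Without KRT8 the other 5 genes summed to 158 to 270 and 187 to 231, which overlap. Of the 6, 4 had a higher and 2 a lower mean after weaning, but without suckling replicate 1 it was 1 higher and 5 lower. Of the 9 measured villus enterocyte markers, 2 averaged higher and 7 lower after weaning (median difference -0.33). Without suckling replicate 1, 0 of the 9 averaged higher (median -0.80). KRT8, an intermediate filament protein, was 7.93 ± 0.22 and 8.64 ± 0.28 (limma adjusted p = 0.218). Macrophage and neutrophil markers, 9 of 14 measured, summed to 51.6 to 190 in suckling and 259 to 364 in weaned piglets, and 8 of the 9 had a higher mean in weaned piglets. LYZ, lysozyme, made up most of this sum in the weaned arrays (205 to 310). Without it the other 8 genes summed to 31.3 to 38.0 and 37.6 to 54.5, which overlap slightly. LYZ is also a Paneth cell marker and is on the goblet and Paneth list, where 3 of 10 genes were measured with sums of 198 to 346 and 387 to 1086. REG3G added most to that list on average, with 12.5 to 116 in suckling and 30.0 to 612 in weaned piglets, which overlap. Without REG3G the other 2 genes summed to 174 to 307 and 357 to 485, which do not overlap. Markers of T, NK and innate lymphoid cells, 10 of 15 measured, summed to 20.7 to 42.9 and 48.2 to 58.1, with 7 averaging higher and 3 lower after weaning (CD3D, CD3G and GATA3). GZMB, granzyme B of cytotoxic cells, carried that gap, and the other 9 genes summed to 8.42 to 11.1 and 7.51 to 11.6, which overlap. Markers of mast cells, basophils and eosinophils, 3 of 10 measured, summed to 4.77 to 8.87 and 6.70 to 8.26, so the groups overlapped. Without KIT, the leading gene, the other 2 summed to 1.67 to 1.89 and 2.07 to 3.28, which do not overlap. Of these 2, GATA2 averaged 0.58 higher after weaning without overlap of the groups (limma adjusted p = 0.232). MS4A2 differed by -0.25 and KIT by 0.13, both with overlapping groups. All of these measured markers were well above background on at least 1 array, and the part of these cell types in the AREG difference was not tested.

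Among the 5 genes whose level was most like AREG across the 8 arrays, out of 2770 candidates, were CCL24, TMEM242, APTX and IDH2 (Pearson r = 0.948, 0.921, 0.915 and 0.914). These values describe 8 arrays that share 2 slides. CCL24, a chemokine that attracts eosinophils, was 0.079 ± 0.58 in suckling and 1.14 ± 0.34 in weaned piglets (difference 1.06, limma adjusted p = 0.232). Both of its probes kept the groups apart. APTX repairs DNA ends, and IDH2 is the mitochondrial isocitrate dehydrogenase. Their differences were 0.45 and 0.46, and that of TMEM242 was 0.51, all 3 without overlap of the groups on the probe used and with limma adjusted p between 0.259 and 0.371. The other APTX probes differed by 0.021 and 0.22 with overlapping groups, and the other IDH2 probes by 0.65 and 0.68, of which the former overlapped. With the group means removed, r with AREG was 0.855 for CCL24, 0.730 for TMEM242, 0.806 for APTX and 0.742 for IDH2. The genes were chosen by their r with AREG on these same arrays, so a high r is partly built in here too.

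The 5 genes most like EGFR were ADAMTS8, ELSPBP1, SLC22A17, DNAJA4 and HTR2B (r = 0.950, 0.903, 0.892, 0.867 and 0.865). ADAMTS8 is a secreted metalloprotease, DNAJA4 a co-chaperone and HTR2B a serotonin receptor. The ELSPBP1 probe was well above background on 5 arrays and the HTR2B probe on 4. None of these passed, with differences between -0.14 and 0.12 and limma adjusted p between 0.844 and 0.962. The pattern they share with EGFR is low values in suckling replicate 4 and weaned replicate 2.

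**Figure D5:**
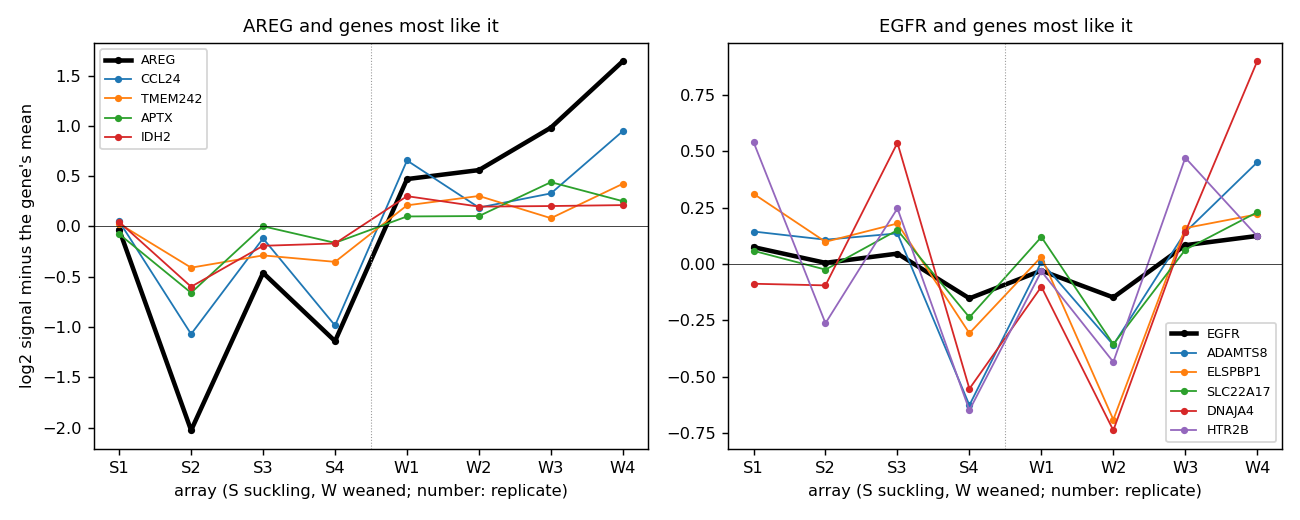
Log2 signal minus the gene's own mean (y axis) in the 8 arrays (x axis; S suckling, W weaned, number for the replicate) for AREG and 4 of the 5 genes most like it (left) and for EGFR and the 5 most like it (right); lines join the values of a gene and imply no order of replicates. AREG (black) and the 4 genes lie higher in all weaned than in all suckling arrays, while EGFR and its 5 genes are low in suckling replicate 4 and weaned replicate 2.

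Of the 10 genes on either side of AREG in the RefSeq gene order, 4 had a probe and 3 were tested, none past the threshold. On the side of EREG lies a group of chemokine genes. CXCL2, a neutrophil chemokine, was -1.37 ± 0.71 in suckling and -0.85 ± 0.46 in weaned piglets (limma adjusted p = 0.601). AMCF-II, a pig chemokine of the same family, was -0.92 ± 1.07 and -0.42 ± 0.53 (limma adjusted p = 0.726), and PPBP was well above background on 2 of 8 arrays and not tested. On the side of BTC, RCHY1, a ubiquitin ligase, was 1.34 ± 0.41 and 1.09 ± 0.27 (limma adjusted p = 0.706). The difference of AREG, 1.83, was thus larger than those of its tested neighbours, 0.50, 0.52 and -0.25; no test of these differences against each other was made.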

How the data were processed

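RNA (integrity 7.0 or higher) was amplified and Cy3-labelled, per the labels' protocols. Agilent Feature Extraction 10.7 is named in the submitters' processing notes. Per the file headers, each scanner file holds a background-subtracted processed intensity, a median spot intensity and a local background intensity per spot. The authors' deposited series table holds log2 values with a median of 5.50 in each column and the rank order of the processed intensity; its centring is unknown.

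Control spots were left out, outlier-flagged spots set to missing, and log2 processed intensities averaged per probe and scaled to the 75th percentile of the array. RefSeq accessions named 6924 of 43603 probes (85.6% of 8091 with such an accession). Probes well above background on at least 4 arrays, with 3 values per group, were tested with limma 3.58.1 in R 4.3.3 (group only, two-sided, Benjamini-Hochberg over all 30554 probes, threshold 0.05), after a check on simulated data. Genes named are the members, from each role list the 1 or 2 genes with the smallest p (every gene past the threshold, had there been any), and the 5 most like AREG and EGFR by Pearson r; ADAM10, ADAM17, FOS, MYC, EGR2, the markers and the neighbours of AREG were chosen after their values were seen. Of the genes this rule picks, 2 are not reported here. The members and lists were chosen with earlier results of these data known. The number of arrays limits the precision, and p-values measure the spread between piglets within a group, each on 1 slide.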

Additional observations from a re-analysis of the deposited data

Results flagged for a closer look

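In 94 groups of 4 values, 6 had an array whose gap to the nearest other array over the whole range passed Dixon's 95% critical value, and chance alone marks about 5% of groups. For TGFA, weaned replicate 2 was highest (0.835). For IDH2 and ADAMTS8, genes most like AREG and EGFR, weaned replicate 1 was highest (0.856) and suckling replicate 4 lowest (0.953). The summed level of mast cell, basophil and eosinophil markers was highest in weaned replicate 3 among the weaned arrays (0.871). The summed level of smooth muscle markers was highest in suckling replicate 3 (0.895), the array with the highest HBEGF. Within the weaned group, replicate 1 had the lowest 75th percentile of intensity (0.918).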

How the results depend on the processing

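AREG kept its direction under all 20 alternatives and passed in 1, without suckling replicate 1 (2.12; limma adjusted p = 0.0469); over all alternatives its adjusted p ran from 0.0469 to 0.391 and its difference without 1 array from 1.46 to 2.12. The count of members past the threshold was 1 in that run and 0 otherwise. HBEGF, TGFA and EGF kept their direction and passed under none of their alternatives (without 1 array -1.17 to -0.69, -0.46 to -0.12 and -0.51 to -0.065); EGF was too dim to be tested when suckling replicate 2, 3 or 4, or weaned replicate 3, was left out, or when all 8 arrays had to be well above background. The EGFR difference, 0.014, turned to -0.065 with quantile normalization, -0.028 with median scaling, -0.11 with normexp, -0.018 with array weights and -0.064 with the deposited log2 table, and ran from -0.034 to 0.066 without 1 array. No pathway gene passed under any of the 19 alternatives run. The count of all probes past the threshold, 54, was 328 with array weights, 0 with the replicate block (4194 at an unadjusted limma p under 0.05) and from 9 to 553 without 1 array. The replicate block changed no call of a member: AREG then had a limma adjusted p of 0.247 (1.83, SE 0.40). No label ties the replicate numbers to litters, and the number also went with the position on the slide. Deviations of same-numbered arrays from their group means correlated at 0.368, 0.0076, 0.186 and -0.018. These values cannot decide whether the numbers mark litters. Only the arrays numbered 1 each correlated best with their own number in both directions. The cause of these changes was not tested. Normexp started from median spot and background intensities, added an offset of 50 and was followed by quantile normalization. Such an offset draws the log2 differences of dim probes toward 0. The smaller normexp differences of EGF, TGFA, HBEGF and SOCS3 therefore cannot be told apart from an effect of the offset. Signal over background limits EGF and, less so, TGFA and HBEGF. The other AREG probe and the marker sums without their leading gene were added after seeing the data.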
